A study of Mus musculus with 34 samples.

Results

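Of 29552 loci bound by ATF3, Jun or JunD in resting macrophages, 986 (3.34%) held a Jun peak and a JunD peak and no ATF3 peak. They were chosen by these 3 lists alone. Peaks of ATF3, Jun and JunD of vehicle-treated C57Bl/6EiJ cells that overlapped by 1 bp or more were joined, and loci with Jun and JunD and without ATF3 were kept. These loci made up 6.35% of the 15535 Jun loci, 5.02% of the 19630 JunD loci and 8.54% of the 11544 loci with both. Which loci have these 3 peaks, and how strong the peaks are, is therefore a description and not a result. Jun, JunD and ATF3 peaks in all other lists, the other factors, the sequence and the position were not used to choose them.

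Jun and JunD are subunits of AP-1, a family of basic leucine zipper proteins that bind DNA as pairs. Pairs of Jun and Fos proteins favour the TRE, a short palindrome, whereas pairs with ATF proteins also use the CRE, which is 1 base longer. ATF3 can pair with Jun proteins. PU.1, which defines the macrophage lineage, CEBPα, and the lipid-sensing nuclear receptor PPARγ bind many of the same regulatory regions.

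The cells were thioglycollate-elicited macrophages (TGEMs), taken from male mice. C57Bl/6EiJ and BALB/cJ mice were wild type and 8 weeks old, with cells taken 3 days after the injection of thioglycollate, and a PPARgKO line on a C57Bl6 background lacked PPARγ. The age of the knockout mice, their time of elicitation and the driver of their deletion are not given in the sources used here. Cells received PBS (Veh) or 100 ng/mL of KLA, a lipid that activates TLR4, for 1 h. ChIP-seq of C57Bl/6EiJ cells under both treatments covered ATF3, Jun, JunD, Fos, FosL2 and JunB. BALB/cJ cells were treated alike but FosL2 was not mapped, and in the knockout ATF3, Jun and JunD were mapped with Veh. PU.1 and CEBPα were mapped with both treatments and PPARγ with Veh, all in C57Bl/6EiJ. Each of the 29 lists with peaks stands for all replicates of its condition. No spread between replicates can be given, and loci, not mice, are the unit of every test. The lists held between 9 and 41573 peaks, and their counts summed to between 203 and 13809143. A list that holds more peaks can cover more loci, and the part of list length in the shares given here was not tested. All 8 macrophage marker genes searched (Adgre1, Csf1r, Itgam, Cd68, Lyz2, Mrc1, Cd14 and Fcgr1) had PU.1 Veh peaks within 5 kb. Such peaks lay at 1 of 5 T cell markers, 2 of 3 B cell markers and 2 of 3 neutrophil markers.

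The sequences of 7 of these loci show the range of motifs among them. Each is the central 200 bp on the plus strand of GRCm38 (mm10), and capitals mark matches to the motifs named with it, whose letters are given with the motif results. PPAR sites are not marked. The locus with the highest Jun and JunD ranks lay in an intron of Nav1 (chr1:135594086-135594285) and carried a TRE. The locus with peaks in most other lists lay in an intron of Tnfsf12, which encodes the cytokine TWEAK (chr11:69692334-69692533), and held none of the motifs searched. The strongest PPARγ-bound locus on the chromosomes printed here that lost Jun in the knockout lay in an intron of Fnip2 (chr3:79531912-79532111) and carried a TRE. The locus in an intron of Dcakd, nearest the start of Mir6931 (chr11:103007009-103007208), carried a CEBP motif. The strongest locus with no ATF3 peak in any list lay in an intron of Peak1, nearest the start of Gm37842 (chr9:56265551-56265750), and carried Runx, ISRE, PU.1 and TRE motifs in this order. The start of Ezr, the gene of the actin linker ezrin (chr17:6782690-6782889), carried a TRE and an Sp1 motif. The locus near the start of Spsb3, at the start of Nubp2 (chr17:24886242-24886441), carried an NF-Y motif.
Nav1: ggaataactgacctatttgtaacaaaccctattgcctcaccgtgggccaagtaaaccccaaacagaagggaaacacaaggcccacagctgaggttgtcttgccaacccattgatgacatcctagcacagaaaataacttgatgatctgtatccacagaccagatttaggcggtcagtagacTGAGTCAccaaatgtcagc
Tnfsf12: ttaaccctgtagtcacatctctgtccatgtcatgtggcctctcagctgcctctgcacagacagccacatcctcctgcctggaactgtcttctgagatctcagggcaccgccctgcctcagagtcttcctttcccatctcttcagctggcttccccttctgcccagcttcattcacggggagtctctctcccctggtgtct
Fnip2: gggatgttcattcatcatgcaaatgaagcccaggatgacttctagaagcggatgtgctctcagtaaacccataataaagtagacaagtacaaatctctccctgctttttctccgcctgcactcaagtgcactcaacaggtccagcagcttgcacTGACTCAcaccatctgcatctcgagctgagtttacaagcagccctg
Mir6931: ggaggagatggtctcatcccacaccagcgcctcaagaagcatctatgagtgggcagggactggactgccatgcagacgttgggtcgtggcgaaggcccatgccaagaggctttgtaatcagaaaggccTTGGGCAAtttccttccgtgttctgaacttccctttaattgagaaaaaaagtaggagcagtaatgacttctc
Gm37842: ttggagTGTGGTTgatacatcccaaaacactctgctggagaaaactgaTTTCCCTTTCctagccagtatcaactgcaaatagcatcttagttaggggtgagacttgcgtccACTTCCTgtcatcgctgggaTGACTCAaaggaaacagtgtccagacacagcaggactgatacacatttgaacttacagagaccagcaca
Ezr: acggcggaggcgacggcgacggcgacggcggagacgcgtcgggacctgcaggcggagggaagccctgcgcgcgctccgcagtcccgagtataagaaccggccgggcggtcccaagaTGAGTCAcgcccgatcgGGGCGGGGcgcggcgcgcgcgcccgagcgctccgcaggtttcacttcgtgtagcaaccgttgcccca
Spsb3: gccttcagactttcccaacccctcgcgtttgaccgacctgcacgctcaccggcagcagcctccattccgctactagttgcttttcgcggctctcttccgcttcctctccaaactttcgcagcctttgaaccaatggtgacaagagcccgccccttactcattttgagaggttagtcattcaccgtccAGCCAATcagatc

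These loci were weak in the lists that chose them. The median Jun count was 19 and the median JunD count 40, which lay at the 25.8 and 29.4 percentiles of their lists by count. At loci with all 3 monomers the medians were 31 and 66, at the 64.5 and 69.99 percentiles. Of the 986 loci, 718 were below the median of both lists, 72 were above the median of both and 8 were in the top 10% of either. They were compact, between 206 and 651 bp wide with a median of 296 bp, and 985 held 1 Jun and 1 JunD peak. The centres of the Jun and JunD peaks were a median of 33 bp apart, and within 50 bp at 660 loci (66.9%). The nearest ATF3 Veh peak was a median of 6098 bp away, under 500 bp away at 102 loci and over 10 kb away at 392. The loci just inside the rule had ATF3 gaps of 1, 3, 4, 11 and 12 bp, and those just outside it had ATF3 overlaps of 10, 11, 16, 17 and 32 bp. Their share of all loci ranged from 2.41% on chromosome 13 to 4.55% on chromosome 11.

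**Figure D1:**
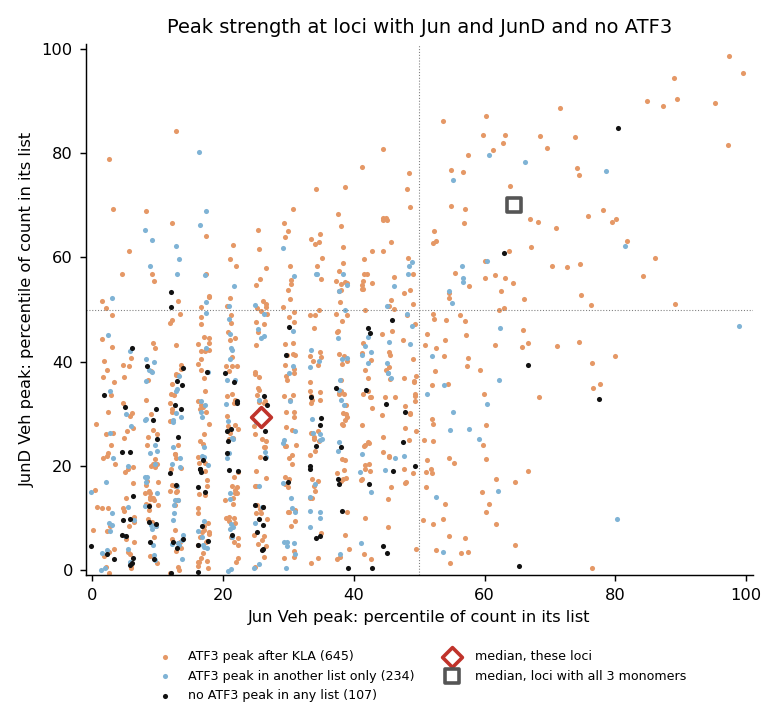
Percentile of the Jun Veh count (x axis) against that of the JunD Veh count (y axis) in their lists, for each of the 986 loci, with points moved at random by up to 1 percentile point so that ties can be seen. Colours give ATF3 peaks in the other lists, open symbols give medians, and 718 of the loci lie below the medians of both lists (dotted lines).

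ATF3 was found at most of these loci in at least 1 other list. ATF3 peaks overlapped 65.4% of them after KLA (645 loci, 95% Wilson interval 62.4 to 68.3%, against 73.6% of all loci). They overlapped 32.8% in BALB/cJ with Veh (323 loci, 29.9 to 35.8%, against 53.8%), 64.3% in BALB/cJ with KLA (634 loci, 61.3 to 67.2%, against 71.7%) and 59.2% in the knockout with Veh (584 loci, 56.1 to 62.3%, against 70.1%). In all, 879 loci (89.2%) had an ATF3 peak in at least 1 of these 4 lists, near the 90.2% of all loci, whereas 107 had none in any list. ATF3 was present in 1 other list at 183 loci, in 2 at 257, in 3 at 267 and in all 4 at 172, which is 17.4%, against 39.1% of all loci. The share with ATF3 in any of the 4 lists was 62.7% at loci with Jun only and 71.7% at loci with JunD only. In each of the 4 lists ATF3 was more frequent at loci with Jun and JunD than at loci with either alone. The differences lay between 14.5 and 29.2 percentage points in 8 of 8 comparisons (Fisher's exact test, largest adjusted p = 1.31e-18). Within bins of Jun strength for Jun-only loci and of JunD strength for JunD-only loci they were smaller and all 8 still passed. ATF3 was less frequent in these lists than at the classes with ATF3 in C57Bl/6EiJ Veh, by -46.6 to -9.72 points, which the choice of loci with and without ATF3 favours and which is given as a description.

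By median, the ATF3 peaks of other lists at these loci lay below the middle of each list. In the KLA list the median was at the 42.3 percentile by count, against 57.7 at loci with ATF3 and JunD and 79.9 at loci with all 3 monomers. The Nav1 locus, whose gene encodes a microtubule-associated protein, was an exception. Its ATF3 counts of 431 after KLA, 244 in BALB/cJ Veh, 325 in BALB/cJ KLA and 260 in the knockout were the highest of these loci in each of the 4 lists. The nearest ATF3 peak in the C57Bl/6EiJ Veh list was 23033 bp away. The 8 loci with the highest Jun and JunD ranks had ATF3 in 3 or 4 of the 4 other lists. Nav1, Dcakd, Tnfsf12, Lgals3, Malt1, Fnip2, Ccl2 and Vav3 were the protein-coding genes with the nearest starts. Why the C57Bl/6EiJ Veh list held no ATF3 peak at these loci was not tested. At the ninth, in Peak1, no list held an overlapping ATF3 peak, and the nearest ATF3 Veh peak was 105 bp away. At this locus Jun had counts of 40 in C57Bl/6EiJ Veh, 44 in BALB/cJ Veh and 43 in BALB/cJ KLA, and JunD had 89, 101 and 76. Neither had a peak there after KLA in C57Bl/6EiJ or in the knockout.

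The pattern of Jun and JunD without ATF3 rarely recurred at the same loci. It was seen again at 69 of them in BALB/cJ Veh (7.0%, against 4.33% of all loci), at 13 after KLA (1.32%, against 0.853%), at 18 in BALB/cJ KLA (1.83%, against 0.646%) and at 4 in the knockout (0.406%, against 0.301%). These differences from all loci were not tested. In BALB/cJ Veh the other loci had JunD alone (289), no peak of the 3 monomers (289), ATF3 and JunD (138), all 3 monomers (120), ATF3 alone (61), Jun alone (16) or ATF3 and Jun (4). In the BALB/cJ Veh lists JunD was at 616 of the loci, ATF3 at 323 and Jun at 209.

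**Figure D2:**
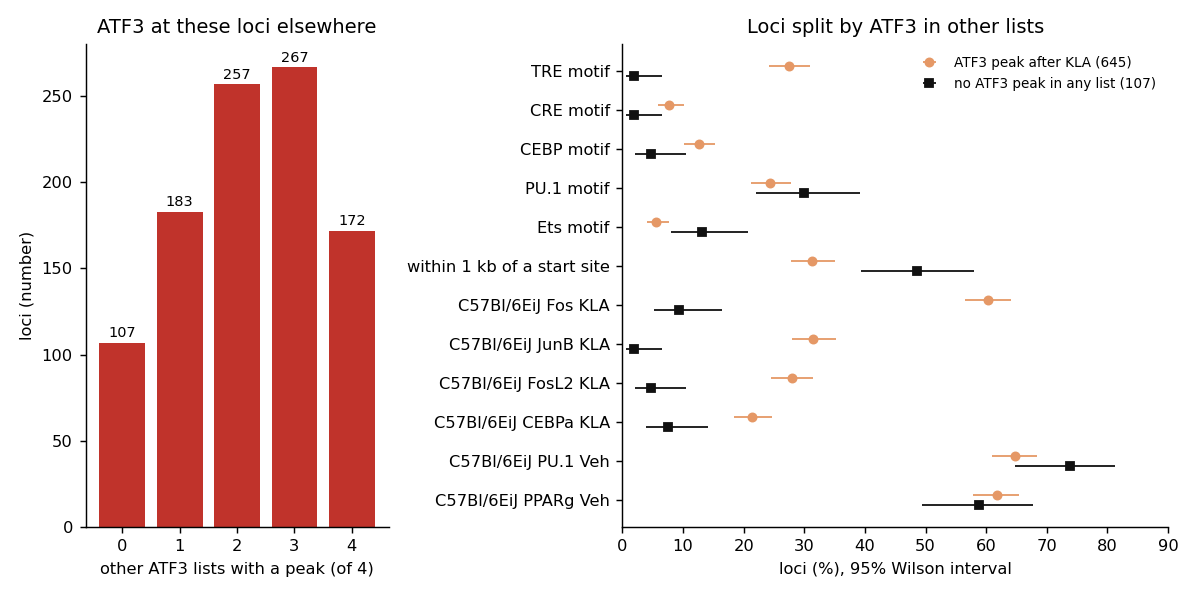
Left, number of the 986 loci (y axis) by how many of the 4 other ATF3 lists had a peak there (x axis), from 107 with none to 172 with all 4. Right, share of loci in percent (x axis, bars are 95% Wilson intervals) with each motif, position or C57Bl/6EiJ peak, for loci with ATF3 after KLA and loci with no ATF3 in any list, where TRE and Fos KLA stand furthest apart for motifs and peaks.

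After KLA, JunD was kept at more of these loci than Jun, and Fos and JunB were listed at more of them than with Veh. The same held over all loci. The KLA lists held 31640 JunD peaks and 17480 Jun peaks, and Fos went from 1804 peaks with Veh to 24365. JunD, which is present in resting cells, was kept at 624 loci (63.3%, interval 60.2 to 66.2%, against 67.2% of all loci) and Jun at 328 (33.3%, 30.4 to 36.3%, against 44.1%). Both were kept at 299 loci, both were lost at 333, JunD alone stayed at 325 and Jun alone at 29. Of the loci without Jun after KLA, 342 had an ATF3 peak (34.7% of the 986). They were 235 with ATF3 and JunD (23.8%, against 20.8% of all loci) and 107 with ATF3 and no JunD (10.85%, against 10.26%). ATF3, Jun and JunD were all listed at 286 (29.0%, against 41.4%) and none of the 3 at 226 (22.9%, against 20.7%). Fos, an early partner of Jun proteins, went from 35 loci with Veh (3.55%, against 4.12% of all loci) to 440 with KLA (44.6%, 41.5 to 47.7%, against 52.8%). FosL2 went from 150 (15.2%, against 16.2%) to 202 (20.5%, against 26.8%). JunB, which was in 463 peaks with Veh and 13375 with KLA, went from 6 loci (0.609%, against 1.15%) to 217 (22.0%, against 33.4%). All 6 monomers were present after KLA at 85 loci and none at 202 (20.5%), counts that were not taken over all loci. In BALB/cJ with KLA, Fos was at 689 loci (69.9%, against 72.1%), JunB at 340 (34.5%, against 47.2%), JunD at 580 (58.8%, against 63.5%) and Jun at 199 (20.2%, against 29.5%). In BALB/cJ with Veh, JunD was at 62.5% (against 64.9%), Jun at 21.2% (against 33.8%) and JunB at 1 locus (0.101%, against 0.0271%). The BALB/cJ Veh list of JunB held 9 peaks.

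PU.1 and PPARγ were common at these loci and CEBPα was not. PU.1 lay at 664 loci with Veh (67.3%, interval 64.4 to 70.2%, against 56.8% of all loci) and at 668 with KLA (67.8%, 64.8 to 70.6%, against 59.8%). PPARγ lay at 621 (63.0%, 59.9 to 65.9%, against 58.4%). CEBPα lay at 190 with Veh (19.3%, 16.9 to 21.9%, against 32.3%) and at 169 with KLA (17.1%, 14.9 to 19.6%, against 33.5%). PU.1 with PPARγ and without CEBPα was the most frequent combination, at 352 loci (35.7%, against 23.0% of all loci), and 129 loci had none of the 3 factors (13.1%, against 17.9%).

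Against the 3 classes of loci that had ATF3 in resting cells, PU.1 with Veh was higher in 2 and CEBPα lower in 3. Of 78 comparisons of a list with a class, 50 were lower and 7 higher at these loci (Fisher's exact test, adjusted p under 0.05), and the 7 were for PU.1, FosL2 Veh, PPARγ and JunD in the knockout. The lists of ATF3, Jun and JunD are part of these counts, and where a class was chosen with or without that monomer the choice bears on the direction, as for JunD in the knockout against loci with ATF3 and Jun. With Veh, PU.1 was 22.0 points higher than at loci with ATF3 and Jun (interval 18.2 to 25.6, adjusted exact p = 1.45e-28) and 5.26 points higher than at loci with ATF3 and JunD (1.98 to 8.43, adjusted p = 0.00262). Against loci with all 3 monomers the difference was -0.994 points (-4.11 to 2.00, adjusted exact p = 0.563). Since these loci were weak, the same comparison was made within bins of 10% of the JunD list. There PU.1 was 10.8 points higher than at loci with all 3 monomers (Mantel-Haenszel test, n = 986 loci, adjusted p = 1.54e-09). Jun strength, with median percentiles of 25.8 at these loci and 64.5 at loci with all 3 monomers, was not matched. With KLA, PU.1 was 20.8 points higher than at loci with ATF3 and Jun, 2.54 points from loci with ATF3 and JunD (adjusted exact p = 0.165) and -5.75 points from loci with all 3 monomers (adjusted exact p = 0.000189), the last being 8.34 points within strength bins. With Veh, the 5.26 points were 3.54 (adjusted exact p = 0.180) at loci over 3 kb from any start site. PPARγ was 17.8 points higher than at loci with ATF3 and Jun (14.0 to 21.6, adjusted exact p = 4.94e-19) and differed by -13.6 points from loci with all 3 monomers (-16.8 to -10.6). The second of these differences was 2.58 points within strength bins (Mantel-Haenszel test, n = 986 loci, adjusted p = 0.168). At loci over 3 kb from any start site it was -18.6 points (adjusted exact p = 4.90e-18). Against loci with ATF3 and JunD, PPARγ differed by -0.282 points (adjusted exact p = 0.896). JunD-only loci had PPARγ at 57.3% and PU.1 Veh at 60.3%. Jun-only loci had them at 33.4% and 40.8%, and these differences were not tested. FosL2 with Veh was 3.47 points higher than at loci with ATF3 and JunD, a call lost over 3 kb from start sites (0.932 points, adjusted exact p = 0.592), and 8.97 points higher than at loci with ATF3 and Jun. Against loci with all 3 monomers it was -17.8 points (adjusted exact p = 8.64e-34) and 1.61 points within strength bins.

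CEBPα was lower than in all 3 classes with both treatments. With Veh the differences were -13.3 points against loci with ATF3 and JunD (-16.0 to -10.4, adjusted exact p = 3.64e-17), -15.1 points against ATF3 and Jun (-18.3 to -11.8, adjusted exact p = 3.17e-17) and -27.5 points against all 3 monomers (-30.0 to -24.7, adjusted exact p = 3.43e-66). Within strength bins, of Jun against ATF3 and Jun and of JunD otherwise, they were -11.8, -14.6 and -17.8 points, and each still passed. At loci with Jun only and JunD only CEBPα Veh was at 12.4% and 11.4%, and CEBPα KLA at 12.9% and 10.8%, below these loci, differences that were not tested. The shares of these loci with Fos, FosL2 and JunB after KLA differed by -0.815, 0.476 and -1.32 points from those of loci with ATF3 and Jun, and the 3 differences did not pass the test. The widest of their intervals ran from -4.66 to 3.05 points. Against loci with ATF3 and JunD the differences were -11.2, -4.59 and -9.97 points, and against loci with all 3 monomers -35.2, -25.4 and -36.5 points, and all 6 passed, although FosL2 against ATF3 and JunD did not within strength bins (-0.886 points). In BALB/cJ, JunB after KLA was -8.58 points from loci with ATF3 and Jun (adjusted exact p = 1.57e-05).

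**Figure D3:**
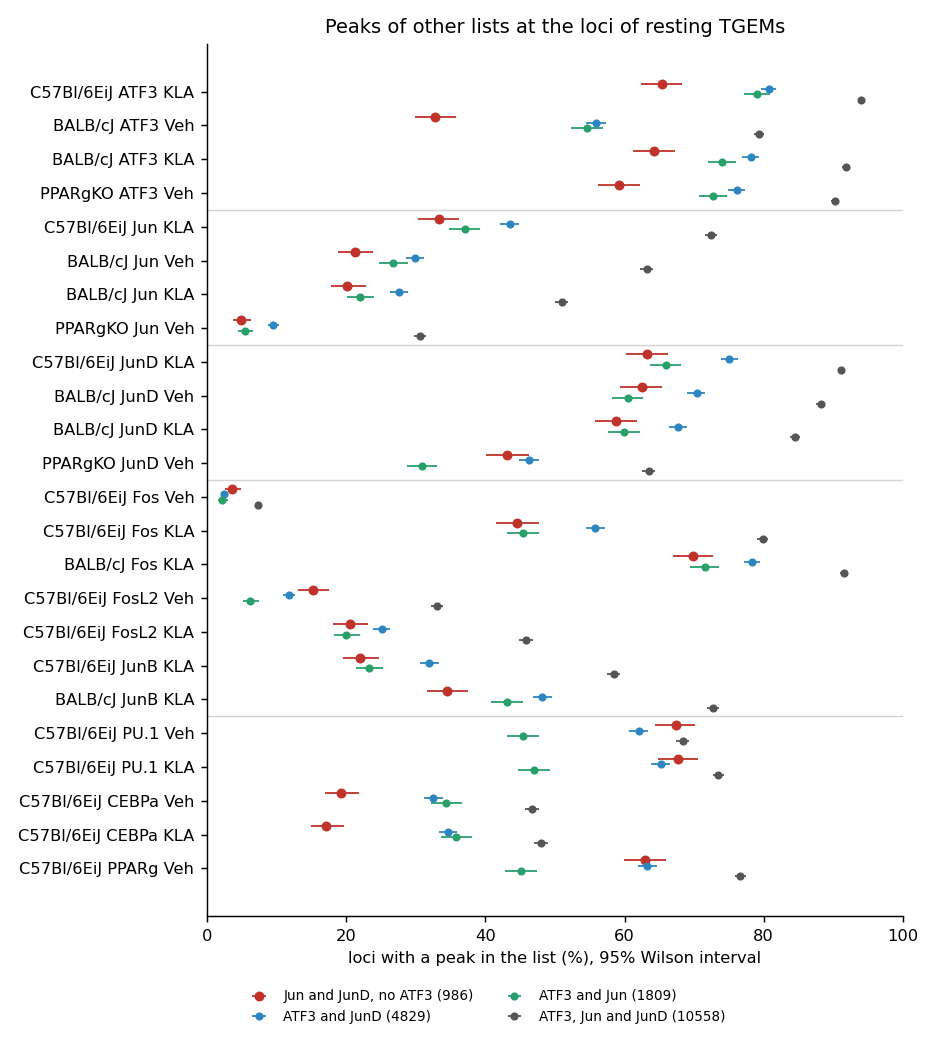
Share of loci in percent (x axis) with a peak in each of 24 lists (y axis) for the 986 loci with Jun and JunD and no ATF3 and for 3 classes with ATF3 in C57Bl/6EiJ Veh. Points are shares, bars are 95% Wilson intervals, and the red points lie left of the grey ones (all 3 monomers) in these 24 lists, by the least in points for PU.1 Veh (67.3 and 68.3%).

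The TRE, a motif of AP-1 dimers, was less frequent at these loci than at loci with all 3 monomers. Motifs were searched as exact letters on both strands of the central 200 bp. A TRE (TGACTCA or TGAGTCA) was present at 201 loci (20.4%, interval 17.99 to 23.0%), against 26% of all loci. Loci with Jun only, JunD only and ATF3 only had a TRE at 19.85%, 14.38% and 16.96%, below these loci, differences that were not tested. Against loci with all 3 monomers the difference was -17.7 points (adjusted exact p = 7.75e-29). Within strength bins it was -6.49 points (Mantel-Haenszel test, n = 986 loci, adjusted p = 0.000137). The differences from the 23.5% at loci with ATF3 and JunD and the 22.8% at loci with ATF3 and Jun did not pass (adjusted exact p = 0.0645 and 0.228). A CRE (TGACGTCA, TGACCTCA, TGAGGTCA or TGAGCTCA, of which 2 contain the PPAR hexamer) was present at 59 (5.98%, against 7.27% of all loci). With the letters TGACGTCA alone it was at 16 (1.62%, against 1.84%). A TRE or a CRE was present at 247 loci (25.1%), against 32.0% of all loci and 45.0% of loci with all 3 monomers. Where a TRE was present its centre was a median of 23.5 bp from the middle of the locus.

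Motifs with a CEBP part were less frequent than in the 3 classes with ATF3. The composite ATF-CEBP site (TGATGCAA, which contains no full CEBP motif as searched) was found at 1 locus (0.101%, upper bound 0.572%), against 3.42% of all loci. It was at 2.71% of loci of ATF3 and JunD, 4.26% of ATF3 and Jun and 1.93% of all 3 monomers (adjusted exact p = 6.04e-09, 1.29e-12 and 1.65e-06). It was also scarce at the other loci without ATF3, with 0.413% at Jun-only and 0.154% at JunD-only loci. The CEBP motif (TTGCNNAA) was at 112 loci (11.4%, 9.53 to 13.5%, against 17.7%), with differences of -10.2 to -6.60 points from the 3 classes (largest adjusted exact p = 9.22e-07). These calls held within bins of strength, within bins of GC content and over 3 kb from start sites. Jun-only loci had the CEBP motif at 14.8% and JunD-only loci at 9.03%, differences that were not tested. The PU.1 motif (ACTTCCT) was at 242 loci (24.5%, against 21.7%), 5.35 points more than at loci with ATF3 and Jun (adjusted exact p = 0.00322). This motif did not pass against loci with ATF3 and JunD (0.7035 points, adjusted exact p = 0.745) or all 3 monomers (1.35 points, adjusted exact p = 0.472). It was at 31.8% of the loci with a PU.1 Veh peak and 9.63% of those without. The CEBP motif was at 38.9% of loci with a CEBPα Veh peak and 4.77% of those without. The PPAR hexamer (AGGTCA, 15.1% of loci, against 16.5%) was at 14.2% of loci with PPARγ and 16.7% without. The full PPAR site, allowing 2 mismatches, was at 4.26% (against 3.67%), with 4.19% and 4.38%.

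Motifs of start sites were frequent. Sp1 (CCCCGCCC) was at 97 loci (9.84%, against 5.35% of all loci) and Ets (CCGGAAG) at 83 (8.42%, against 4.51%), each higher than in all 3 classes (largest adjusted exact p = 2.43e-05). The other motifs were CTCF (AGGGGGC, 5.38%, against 3.61%), the MiT E-box (TCACGTG, 5.27%, against 3.5%), NRF1 (GCATGCGC, 1.83%, against 0.988%), YY1 (AAGATGG, 4.56%, against 3.46%), Runx (TGTGGTT, 6.59%, against 7.37%), NF-Y (AGCCAAT, 2.94%, against 3%) and ISRE (3.65%, against 3.03%). JunD-only loci had Sp1 at 11%, Ets at 9.74% and CTCF at 6.73%, above these loci. Jun-only loci had them at 6.24%, 4.77% and 3.81%, and none of these differences was tested. Of 51 comparisons of a motif with a class that had ATF3, 24 passed. At loci over 3 kb from any start site 11 passed, and Sp1 and Ets passed against none of the 3 classes there. Within bins of GC content Sp1 also passed against none (1.17 to 1.82 points), and Ets was not past the threshold against ATF3 and Jun (1.39 points).

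**Figure D4:**
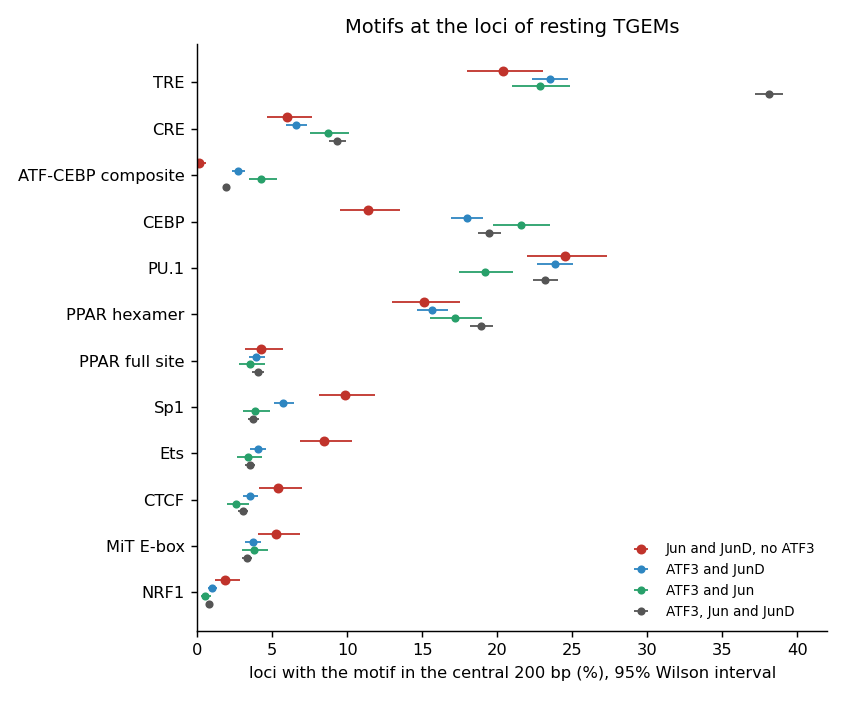
Share of loci in percent (x axis) with each of 12 motifs (y axis) in the central 200 bp, for the 986 loci with Jun and JunD and no ATF3 and for 3 classes with ATF3. Points are shares and bars are 95% Wilson intervals. The red points are the lowest of the 4 for TRE, CRE, CEBP (11.4%) and the ATF-CEBP composite (0.101%) and the highest for Sp1 (9.84%) and Ets (8.42%).

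Start sites were frequent among these loci. With 36.1% (356 loci, interval 33.2 to 39.1%) within 1 kb of an annotated start, they were above all loci (24.9%) and above the 3 classes with ATF3. JunD-only loci had 43.9% and Jun-only loci 27.0%, differences that were not tested. Against the 3 classes with ATF3 the differences were 10.5 points against ATF3 and JunD (7.34 to 13.8, adjusted exact p = 1.58e-10), 14.7 points against ATF3 and Jun (11.1 to 18.2, adjusted exact p = 7.68e-16) and 16.8 points against all 3 monomers (13.7 to 19.9, adjusted exact p = 2.20e-30). Introns held 37.3% (against 42.1%), the space between genes 23.8% (against 29.3%) and exons 2.74% (against 3.65%). The median distance to a start was 3390 bp, against 5403 bp for all loci, and 209 loci lay within 100 bp of one (21.2%, against 12.1%). The median GC content was 51.5%, against 48.5%.

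Loci at start sites and elsewhere differed in motifs and partners. At the 356 start-site loci Sp1 was at 23.0% and Ets at 20.5%, against 2.38% and 1.59% at the other 630. The TRE was at 9.83% of the former and 26.3% of the latter, a difference of -16.5 points (interval -21.0 to -11.7). PPARγ was at 73.3% of start-site loci and 57.1% elsewhere (difference 16.2 points, 10.0 to 22.0), whereas PU.1 with Veh was at 65.4% and 68.4% (difference -2.96 points, -9.14 to 3.08). After KLA, Fos was at 30.9% of start-site loci and 52.4% elsewhere, and JunB at 12.6% and 27.3%. Fos with Veh was the reverse, at 7.58% and 1.27%. ATF3 in any other list was at 85.4% and 91.3%.

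**Figure D5:**
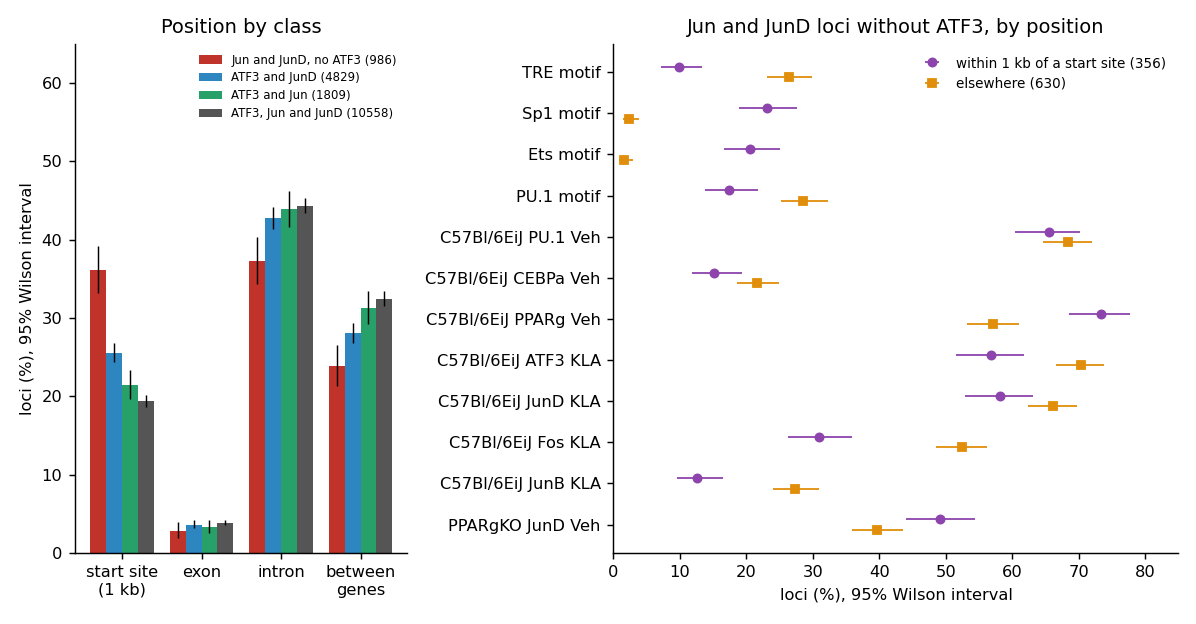
Left, share of loci in percent (y axis, bars from 0 with 95% Wilson intervals) by position for 4 classes of loci, with start sites at 36.1% of loci with Jun and JunD and no ATF3. Right, share of the 356 start-site loci and of the other 630 (x axis) with each motif or peak (y axis), with 95% Wilson intervals. The Sp1 and Ets motifs and PPARγ are more frequent at start sites, and TRE, Fos KLA and JunB KLA elsewhere.

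The 201 loci with a TRE had AP-1 monomers after KLA more often and PU.1 and PPARγ less often than the others. Against the 785 without a TRE, ATF3 after KLA was at 88.1 and 59.6% (difference 28.4 points, interval 22.2 to 33.6), Fos after KLA at 81.6 and 35.2% (46.4 points, 39.6 to 52.2) and JunD after KLA at 87.1 and 57.2%. PU.1 with Veh was at 41.8 and 73.9% (-32.1 points, -39.3 to -24.5) and PPARγ at 43.3 and 68.0% (-24.7 points, -32.1 to -17.1). The intervals for Fos with Veh, Jun and JunD in the knockout and CEBPα after KLA included 0. All but 2 of the 201 had ATF3 in at least 1 other list. Loci of higher rank also had more monomers elsewhere. In the strongest 329 by mean Jun and JunD rank, Jun was kept after KLA at 47.1% and ATF3 was present after KLA at 75.7%, against 19.1 and 56.5% in the weakest 329.

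The 645 loci with ATF3 after KLA differed from the 107 with no ATF3 in any list in 8 of 27 measures that were not ATF3 (Fisher's exact test, adjusted p under 0.05). With ATF3, the TRE was at 27.4% against 1.87% (25.6 points, interval 19.8 to 29.4, adjusted exact p = 2.50e-10). Fos after KLA was at 60.3% against 9.35% (51.0 points, 43.0 to 56.6, adjusted exact p = 3.91e-23), JunB after KLA at 31.5% against 1.87% and FosL2 after KLA at 27.9% against 4.67%. CEBPα after KLA was at 21.4% against 7.48% and the CEBP motif at 12.6% against 4.67%. Start sites were fewer, 31.3% against 48.6% (-17.3 points, -27.3 to -7.32, adjusted exact p = 0.00275), and so was the Ets motif, 5.58% against 13.1%. The calls for the CEBP and Ets motifs were lost under 4 and 2 of 6 alternatives. PU.1 with Veh was at 64.8% and 73.8% (adjusted exact p = 0.174) and PPARγ at 61.7% and 58.9% (adjusted exact p = 0.738). The 107 were weaker, with median Jun and JunD percentiles of 21.4 and 19.5 against 30.1 and 31.8. They were in a median of 4 of the 26 other lists against 12. These 26 include the 4 ATF3 lists by which the loci were split, so the split itself fixed part of that difference. Strong loci among the 107 were in Peak1, 13471 bp from the start of Snhg7os, in Slc10a7 and at the start of Vav1. Their PU.1 counts with Veh were 483, 614, 959 and 857.

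In cells without PPARγ, Jun was listed at 48 of these loci (4.87%, interval 3.69 to 6.39%, against 13.8% of all loci). The knockout list of Jun held 4290 peaks, against 15548 in C57Bl/6EiJ. Jun was kept at 34 of 621 loci with PPARγ (5.48%) and at 14 of 365 without (3.84%), a difference of 1.64 points (-1.29 to 4.22) that did not pass (Fisher's exact test, adjusted p = 0.285). At loci with all 3 monomers Jun was kept at 35.0% with PPARγ and 16.1% without. The shares were 7.59 and 3.63% at loci with ATF3 and Jun, and 1.51 and 0.825% at Jun-only loci. Differences within these other classes were not tested. JunD was at 425 of the 986 loci in the knockout (43.1%, against 43.3%), at 51.4% of those with PPARγ and 29.0% of those without (difference 22.3 points, 16.1 to 28.2, adjusted exact p = 1.71e-11). For ATF3 the shares were 62.2 and 54.3% (7.91 points, 1.55 to 14.3, adjusted exact p = 0.0236). With the strongest 50% of each list neither call held, at 5.83 points for JunD and -7.37 for ATF3, and the ATF3 call was also lost without loci within 500 bp of an ATF3 Veh peak (5.26 points) and within bins of Jun strength (6.63 points). The strongest PPARγ-bound loci without Jun in the knockout were at the start of Malt1, in Fnip2, in Peak1, in Arhgap26 and at the start of Ezr. At Fnip2 the counts in C57Bl/6EiJ Veh were 71 for Jun, 81 for JunD and 69 for PPARγ, and in the knockout ATF3 had 58 and JunD no peak. At Ezr they were 36, 74 and 40, and in the knockout ATF3 had 46 and JunD 59. Of the 102 loci with an ATF3 Veh peak under 500 bp away, 35.3% had ATF3 in the knockout, against 62.0% of the other 884 (difference -26.7 points, -35.8 to -16.5). The other ATF3 lists did not show this. The differences were -6.26 points after KLA (-16.4 to 3.28), -5.92 in BALB/cJ Veh (-14.3 to 3.92) and 5.92 in BALB/cJ KLA (-4.08 to 14.6).

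Named loci spanned the range from nearly all lists to nearly none. Loci were in a median of 10 of the 26 other lists (range 0 to 23), against 17 at loci with all 3 monomers, and 16 were in 20 or more. The 26 include 4 lists of ATF3, and the choice of loci without and with ATF3 favours the difference in medians. The Tnfsf12 locus was in 23, with Jun counts of 61 with Veh and 40 with KLA, and 22 in the knockout, and JunD counts of 98, 386 and 98. Nav1 was in 22, and so was an exonic locus of Mpeg1, the gene of the pore-forming protein perforin-2. Mpeg1 had Jun and JunD counts of 40 and 63 with Veh and an ATF3 count of 122 after KLA. The strongest locus near Lgals3, which encodes galectin-3, had a Jun count of 49 and a JunD count of 117 with Veh, and 42 and 425 with KLA. Counts of different lists differ in depth and are not comparable in size. At Spsb3, a SOCS box gene whose start lies beside that of Nubp2, the list of other peaks included ATF3 (106), Fos (60) and JunD (333) after KLA, PU.1 with Veh (894) and PPARγ (69), and none in the knockout.

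The nearest protein-coding genes numbered 913, of which 63 had 2 or more of these loci, led by Ano6 with 4. Of 21992 protein-coding genes, 376 (1.71%) had such a locus within 1 kb of a start, and 24 of the 396 genes in 19 lists of macrophage and housekeeping functions did (6.06%). Any of the 29552 loci was near the starts of 67.7% of the listed genes and 25.2% of all. Among glycolysis genes 4 of 16 had one (Aldoa, Gapdh, Hk1 and Pgk1) and among proteasome subunits 4 of 36 (Psmb6, Psmd13, Psmd3 and Psmd7). Any of the 29552 loci was near 13 of these glycolysis genes and 22 of the proteasome genes. Autophagy had 3 of 23 (Atg3, Gabarap and Nbr1), with 2 of these loci at Gabarap. The lists of the lysosome and proton pump (Atp6v1a and Lamp1, of 28), iron and heme (Ftl1 and Slc11a2, of 14) and actin and adhesion (Ezr and Zyx, of 26) had 2 each. Each of 7 further lists had 1, namely Bcl3, Mapkapk3, Spsb3, Il12b, Klf4, Cd36 and Apoe. The lists of AP-1 family genes (0 of 15), TLR4 signalling (0 of 22), the interferon response (0 of 22), surface receptors (0 of 22), translation factors (0 of 19) and splicing factors (0 of 21) had none. In this order, any of the 29552 loci was near the starts of only 12, 14, 7, 16, 15 and 14 of their genes. No gene list was tested. Cd36, the gene of a scavenger receptor and a well-known PPARγ target, had Jun and JunD counts of 25 and 56 at its start, 225 bp from it. Its PPARγ count was 308 and its PU.1 counts were 541 with Veh and 87 with KLA, in lists with median counts of 259 and 62. After KLA no AP-1 monomer was listed there in C57Bl/6EiJ. At Il12b, a cytokine gene of activated macrophages, ATF3 (64), Jun (29), JunB (25) and JunD (282) were all listed after KLA. At the start of Klf4, JunD (288) was the only monomer after KLA in C57Bl/6EiJ, and Fos (58) in BALB/cJ.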

How the data were processed

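The deposited lists cover ChIP-seq peaks of 30 of 34 samples, and the 4 inputs have none. Alignment by the authors used Bowtie2 on mm10 (versions of Bowtie2 and HOMER are not given in the sources used here). BALB/cJ reads were aligned to a genome built for that strain, and their positions were moved to mm10. HOMER peaks over input were then kept where replicates agreed at an IDR under 0.05. Each peak has a deposited count, not scaled to library size, and how the authors combined the counts of replicates is not given in the sources used here. The deposited score is the scaled IDR (540 to 1000) and was used only to describe the lists. The empty BALB/cJ list of Fos with Veh was not used.

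Python 3.11.15, numpy 2.4.6, pandas 2.3.3, scipy 1.17.1, pysam 0.24.0, samtools 1.23.1 and matplotlib 3.10.9 were used. Peaks overlapping by 1 bp or more were joined on GRCm38, the build of mm10, with GENCODE genes. Of 596383 peaks, 268 lay on other sequences, where motifs were not searched. The percentile of a peak is that of its count in its list, with ties averaged. Shares have 95% Wilson intervals, which like the tests cover counting error over loci only. Differences have Newcombe intervals and two-sided Fisher's exact tests, with Benjamini-Hochberg adjustment within each family and a limit of 0.05. Mantel-Haenszel tests used bins of 10% of a list or 5 points of GC content. Comparisons with another class used strength bins of 1 list. This was the JunD list where that class had JunD and the Jun list otherwise, and the strength of the other monomer was not matched. Overlap, motif search and tests were tested on simulated data.

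Named loci were the 10 of highest mean rank, the 5 in most lists, the 5 highest with PPARγ and no Jun in the knockout, the 5 highest with ATF3 after KLA and with no ATF3 in any list, those at starts of listed genes, and Spsb3. One of these loci is not reported here. The loci and the gene lists were chosen with earlier results of these data known. Alternatives were centres within 100 bp, 50% reciprocal overlap, the strongest 50% of each list, no ATF3 peak within 500 bp, loci over 3 kb from starts, starts within 3 kb or of protein-coding genes, the central 100 bp, and the bins above. Loci on 1 chromosome are not printed as sequence.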

Additional observations from a re-analysis of the deposited data

How the results depend on the processing

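Each condition has 1 list, so no replicate could be left out. The number of loci was 475 with the strongest 50% of each list, and the motif comparisons past the threshold were 11 at loci over 3 kb from start sites, where fewer loci were tested. Of 1219 recomputed single differences, 1102 kept their direction or call, 67 lost significance, 41 gained it and 9 past the threshold under either setting changed sign. Differences past the threshold under neither setting were counted with the 1102. Within strength bins the differences from loci with all 3 monomers changed sign for PU.1 Veh (10.8 points), PU.1 KLA (8.34), PPARγ (2.58), FosL2 Veh (1.61) and Fos Veh (1.13). Over 3 kb from start sites the Ets differences were -0.102 points from loci with ATF3 and JunD and -0.448 from all 3 monomers. With the strongest 50% of each list, YY1 was -0.408 points from all 3 monomers, and ATF3 in the knockout was -7.37 points with against without PPARγ (adjusted exact p = 0.358). The cause was not tested. The comparison of loci with and without ATF3 was also recomputed with 6 alternatives chosen after seeing the data, in which between 7 and 12 of 27 measures passed. No paired analysis was possible because each condition has 1 list. Depth limits what a missing peak means: a locus without an ATF3 peak is one where none was listed.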
